A study of Rattus norvegicus with 31 samples.

Results

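The heat shock chaperone genes described here are 10 genes named by symbol: Hspa1a, Hspa1b, Hspa1l, Hspa8, Hsph1, Dnajb1, Hsp90aa1, Hspb1, Hspb7 and Cryab. They were looked up by symbol in a table of 19100 RefSeq genes and, by the gene name of the annotation, in a table of 46063 genes assembled from the reads. Both tables held 9 of the 10, and Hspa1a was not found under that symbol in either. The samples were left ventricles of untreated rats, and their total RNA was sequenced after removal of ribosomal RNA. The progenitor strains were SHR/OlaIpcv (called SHR, 4 rats) and BN-Lx/Cub (called BN-Lx, 4 rats), all with a library in sequencing batch 1. The HXB/BXH recombinant inbred panel was derived from these progenitors and was represented by 12 HXB strains and 9 BXH strains, with 1 library for each strain. Of the 21 strains 6 were in batch 2 (3 HXB and 3 BXH) and 15 in batch 3. Sex and age are not given in the labels. No strain of the panel had a replicate, so a strain and its library cannot be told apart.

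Heat shock proteins are molecular chaperones that hold or refold proteins that have lost their structure. HSP70 proteins bind exposed stretches of a client protein and release them in a cycle driven by ATP. J-domain proteins such as Dnajb1 deliver clients and start ATP hydrolysis, and HSP110 proteins such as Hsph1 exchange the nucleotide. HSP90 completes the maturation of kinases and receptors, while small heat shock proteins hold unfolded clients without ATP. Heat, ischaemia and other stress induce many of these genes through heat shock factor 1, which binds heat shock elements made of inverted GAA repeats. Cardiomyocytes hold large amounts of the small heat shock proteins, among them αB-crystallin (Cryab), which binds desmin and titin.

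Promoter sequences are shown first, because the genes are known as targets of heat shock factors and the inverted repeat can be read in them. RefSeq promoters of build GRCr8 (250 bases before the start of the gene and 50 after it) were matched for 7 of the 10 genes. The pair of inverted repeats was searched as GAANNTTC or TTCNNGAA, each of which is its own reverse complement, so that both strands were covered. Only exact matches were counted, so an element with a changed base would be missed. Overlapping matches were kept. The pair was found in 4 of the 7 promoters, Hspa8, Hsph1, Dnajb1 and Hspb1, and not in those of Hspa1a, Hspa1l and Hspb7. Over all 33469 promoters of the same length, 15.9% held at least 1 pair. The run of 3 repeats (GAANNTTCNNGAA or TTCNNGAANNTTC), in which matches of both pairs overlap, was found in Hspa8 and Hsph1 and in 0.798% of all promoters. The stretches upstream of the gene start that hold the pairs are given 5′ to 3′ on the strand of the gene, with the pairs in capitals. Hspa8 (chr8:50080286-50080486, plus strand) had matches that began 213, 208, 55 and 50 bases before the start. Hsph1 (chr12:10427248-10427359, plus strand) had them at 105, 36 and 31 bases. Dnajb1 (chr19:41431142-41431167, minus strand) had 1 upstream match at 11 bases, and Hspb1 (chr12:26432388-26432445, minus strand) had matches at 129 and 109 bases.
Hspa8: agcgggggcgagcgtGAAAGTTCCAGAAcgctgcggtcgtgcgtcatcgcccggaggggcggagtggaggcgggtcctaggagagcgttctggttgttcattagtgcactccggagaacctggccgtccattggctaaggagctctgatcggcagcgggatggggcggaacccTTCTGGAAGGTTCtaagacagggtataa
Hsph1: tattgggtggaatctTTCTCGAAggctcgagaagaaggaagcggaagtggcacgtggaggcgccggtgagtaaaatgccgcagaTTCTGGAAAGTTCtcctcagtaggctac
Dnajb1: gcatcgggaggggcgGAAGGTTCtgg
Hspb1: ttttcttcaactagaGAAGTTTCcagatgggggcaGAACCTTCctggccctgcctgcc
A match is a description of the letters, and binding was not measured in these samples.

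Values throughout are log2 expression values as deposited, and differences are on the same log2 scale. Read depth is unknown. Levels of different genes were not ranked, since it is not known whether the values are per length. Sums and shares over the models or transcripts of 1 gene take these values to be on a common scale, which was not checked. Sums over the markers of a cell type do so too, and they weigh the genes with the highest values most. The libraries also differed in 2 technical measures. The first, called the technical score, is the slope of a library's deviation on the difference between 2 libraries labelled as the same SHR rat (replicate 4). The deviation is from the mean of all libraries but those 2. In the assembled table the pair was the later and the batch 1 library, and in the RefSeq table it was the 2 later libraries. The scores of the 2 tables thus rest on different pairs, and the batch 1 library is also 1 of the 4 SHR libraries compared. The second is the mean level of 25 abundant spike-in RNAs. In the assembled table the score ran between -0.19 and 0.16 in SHR and between 0.17 and 0.28 in BN-Lx. The spike-in level ran between 11.02 and 11.60 in SHR and between 11.67 and 12.68 in BN-Lx, so neither measure overlapped between the strains. In the RefSeq table the score had a median of 0.35 in HXB strains (-0.49 to 1.15) and of -0.61 in BXH strains (-0.997 to 0.36). The spike-in level had a median of 11.3 in HXB strains and 12.1 in BXH strains. Both measures were also run as covariates for the chaperone and pathway genes named below, while transcripts and marker counts are given without them.

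The comparison of the progenitors asks how SHR, a strain with spontaneous hypertension, differed from BN-Lx. Among the 9 measured genes 4 were lower in SHR (Hspa1b, Hspa8, Hspb1 and Cryab) and 1 was higher (Hspb7), with limma and a Benjamini-Hochberg adjusted p under 0.05. Over all 46063 assembled genes 6.95% were called lower and 7.38% higher. With genes of a mean under 5 removed, 6 of the 9 and 4975 of the remaining 19565 genes were called. The median difference over the 9 genes was -0.35, beside 0.01 over all assembled genes. The ranges of the 4 SHR and 4 BN-Lx rats did not overlap for 5 of the 9 genes (Hspa1b, Hspa1l, Hspa8, Hspb1 and Cryab), beside 20.6% of all assembled genes. Since neither technical measure overlapped between SHR and BN-Lx, the fits with them as covariates cannot tell strain and technical measures apart. Hspa1b, Hspb1 and Cryab stayed called in all 17 other settings that were run, these fits included. For genes other than Hspa1b, 1 of the 17, the sum of the Hspa1b models, leaves the difference unchanged by design. Over these the difference of Hspa1b lay between -1.94 and -0.86 (adjusted p 0.000242 to 0.0419), that of Hspb1 between -0.88 and -0.53 (0.000437 to 0.044) and that of Cryab between -0.67 and -0.50 (0.000438 to 0.0322).

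**Figure D1:**
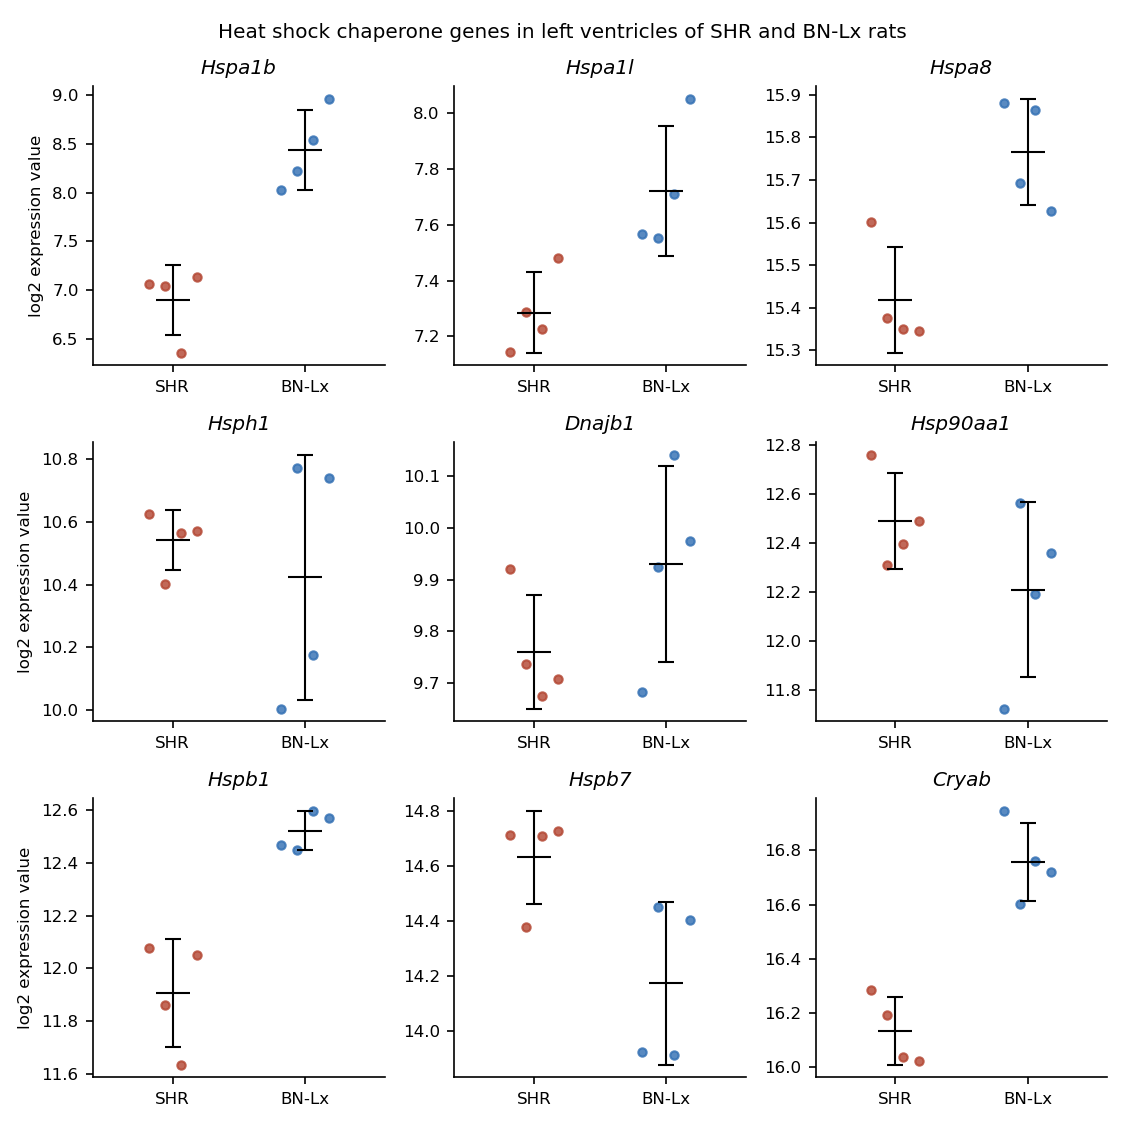
Deposited log2 expression values (vertical axis) of 9 heat shock chaperone genes in the table of assembled genes, in 4 SHR (left, red) and 4 BN-Lx rats (right, blue); points are rats, and bars are the mean and 1 SD. For Hspa1b, Hspa1l, Hspa8, Hspb1 and Cryab all SHR points lie below all BN-Lx points, while Hsph1, Dnajb1, Hsp90aa1 and Hspb7 overlap.

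Hspa1b encodes the stress-inducible HSP70. The assembled gene with that name and the highest mean (PRN7.71G0241740, build rn7, chr20:3856109-3873392, plus strand, 2 exons) had 7.06, 7.04, 6.36 and 7.14 in SHR, against 8.03, 8.23, 8.54 and 8.96 in BN-Lx. All 4 SHR rats were below all BN-Lx rats, and SHR replicate 3 was the lowest. The difference was -1.54 (SE 0.21, adjusted p = 0.000432), a 2.91-fold lower level in SHR. The 2 libraries of SHR replicate 4, which carry the label of the same rat but different batches, differed by -1.07 for this gene (later minus batch 1), beside a median of -0.13 over 10055 assembled genes with a mean over 8.

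The size of that difference depended on the gene model. The annotation names 3 overlapping genes Hspa1b, each with 2 exons on the plus strand of chromosome 20. Their first exons start between 3856107 and 3856136, next to Hspa1l, which ends at 3855931, and all second exons end at 3873392. Whether these models join the Hspa1a and Hspa1b copies was not tested, so their values cannot be given to 1 of the 2 copies. The model with the highest mean has exons of 1794 and 1344 bases (3856109 to 3857902 and 3872049 to 3873392). The model with the longest second exon (2539 bases, 3870854 to 3873392) went the other way, with 7.26, 6.44, 6.53 and 6.54 in SHR against 2.93, 6.07, 5.01 and 2.99 in BN-Lx, and was higher in SHR by 2.44 (SE 0.58, adjusted p = 0.0136). The third model had 3.60, 1.73, 4.93 and 4.77 in SHR and 5.10, 6.51, 6.47 and 5.92 in BN-Lx, a difference of -2.24 (SE 0.59, adjusted p = 0.0233). Added together on the linear scale, the 3 models gave 8.23, 7.79, 7.68 and 8.03 in SHR and 8.24, 8.84, 8.95 and 9.15 in BN-Lx. The sum was lower in SHR by a difference of -0.86 (SE 0.18, adjusted p = 0.00719), or 1.82-fold, with the highest SHR rat just below the lowest BN-Lx rat. The model with the longest second exon made up 47.8% ± 7.6 of the summed transcripts in SHR and 5.62% ± 6.4 in BN-Lx (SD, n = 4 each), and the division of reads among overlapping models was not tested.

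**Figure D2:**
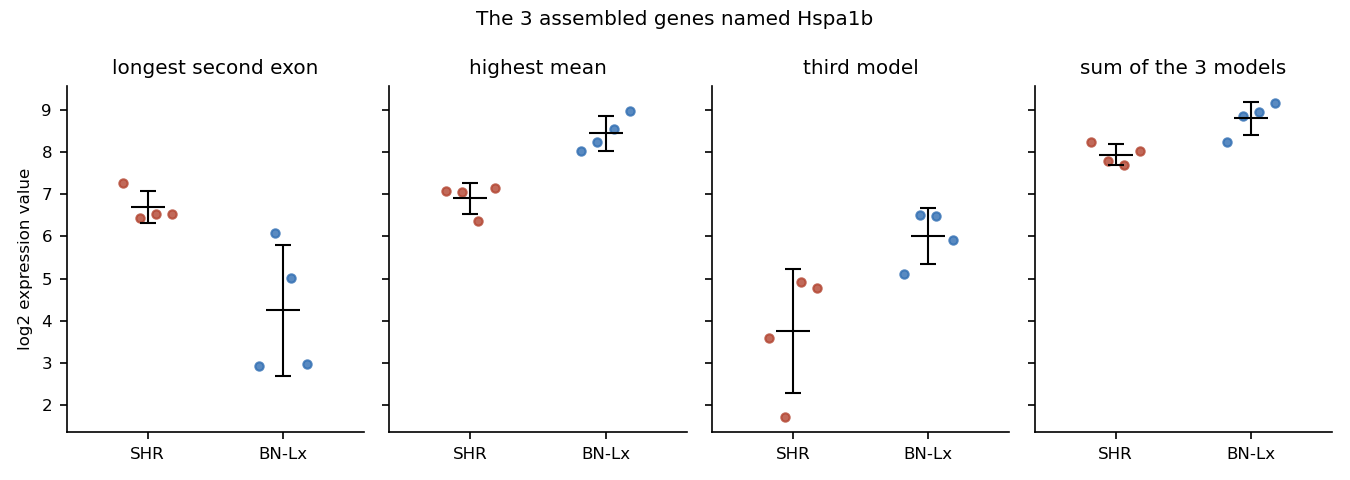
Deposited log2 expression values (vertical axis) of the 3 assembled genes named Hspa1b, and of their sum on the linear scale, in 4 SHR (left, red) and 4 BN-Lx rats (right, blue); bars are the mean and 1 SD. The model with the longest second exon is higher in SHR by 2.44, the other models are lower in SHR by differences of -1.54 and -2.24, and the sum is lower by a difference of -0.86.

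Hspa1l and Hspa8 are the other HSP70 genes of the list. Hspa1l, known for its expression in testis, lies next to the stress-inducible genes (chr20:3848915-3855931, minus strand, rn7). It had 7.14, 7.29, 7.23 and 7.48 in SHR, against 7.57, 7.55, 7.71 and 8.05 in BN-Lx. The ranges did not overlap, yet the difference of -0.43 (SE 0.14) missed the threshold (adjusted p = 0.0545). It was called in 4 of 17 other settings. Hspa8 encodes the constitutive HSC70 (chr8:41183397-41187260, plus strand, 9 exons). It had 15.60, 15.38, 15.35 and 15.35 in SHR and 15.88, 15.69, 15.86 and 15.63 in BN-Lx. The highest SHR rat, replicate 1, was just below the lowest BN-Lx rat, and the difference was -0.35 (SE 0.08, adjusted p = 0.0134). Hspa8 was no longer called in 4 of 17 settings, among them the technical score (-0.43, adjusted p = 0.117) and the spike-in level (-0.45, adjusted p = 0.0684) as covariates.

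The partners of HSP70 and the inducible HSP90 did not pass the test. Hsph1, the HSP110 that exchanges nucleotide on HSP70, had 10.62, 10.40, 10.57 and 10.57 in SHR, against 10.003, 10.77, 10.17 and 10.74 in BN-Lx. The 4 SHR values lay within the BN-Lx range, and the difference was 0.12 (SE 0.15, adjusted p = 0.658). It changed sign without BN-Lx replicate 1 (-0.0213) and with the technical score as a covariate (-0.105). Dnajb1, the J-domain partner, had 9.92, 9.74, 9.67 and 9.71 in SHR, against 9.68, 9.92, 10.14 and 9.97 in BN-Lx. These overlapped, with a difference of -0.17 (SE 0.10, adjusted p = 0.302). Hsp90aa1, the inducible cytosolic HSP90, had 12.76, 12.31, 12.40 and 12.49 in SHR, against 11.72, 12.56, 12.19 and 12.36 in BN-Lx. Its difference was 0.28 (SE 0.15, adjusted p = 0.249), with BN-Lx replicate 1 the lowest of the 8. None of these 3 genes was called in any of the 17 other settings.

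The small heat shock proteins moved in both directions. Hspb1 encodes HSP27 (chr12:20794014-20795675, minus strand, 3 exons). It had 12.08, 11.86, 11.63 and 12.05 in SHR, against 12.47, 12.45, 12.60 and 12.57 in BN-Lx. SHR was lower without overlap, by a difference of -0.62 (SE 0.10, adjusted p = 0.000965). Cryab had 16.28, 16.19, 16.04 and 16.02 in SHR, against 16.95, 16.60, 16.76 and 16.72 in BN-Lx. Again no SHR rat reached the lowest BN-Lx rat, and the difference was -0.62 (SE 0.09, adjusted p = 0.000438). Hspb7, a small heat shock protein of heart and skeletal muscle, went the other way. It had 14.71, 14.38, 14.71 and 14.73 in SHR and 13.92, 14.45, 13.91 and 14.41 in BN-Lx, and was higher in SHR by 0.46 (SE 0.13, adjusted p = 0.0331). SHR replicate 2 lay within the BN-Lx range, and the call was lost in 10 of 17 settings. Leaving out SHR replicate 1, 3 or 4 gave a difference of 0.43 each time, with an adjusted p of 0.0753 to 0.0904. Leaving out replicate 1 or 3 of the BN-Lx rats gave 0.37, with an adjusted p of 0.0922 to 0.0967. With the technical score as a covariate Hspb7 had 0.25 (adjusted p = 0.564), and with the spike-in level 0.83 (adjusted p = 0.0118). The 2 libraries of SHR replicate 4 differed by -0.61 for Hspb1, -0.36 for Cryab and -0.68 for Hspb7 (later minus batch 1), beside differences between strains of -0.62, -0.62 and 0.46.

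At the level of assembled transcripts, 17 transcripts of the 9 genes were measured, and 3 were called, all lower in SHR. Over all 91969 transcripts 2.81% were called lower and 2.72% higher. The 3 were the Hspa1b transcript of the model with the highest mean (-1.91, SE 0.31, adjusted p = 0.00919), the single Hspb1 transcript (-0.80, SE 0.15, adjusted p = 0.0159) and the main Cryab transcript (-0.67, SE 0.11, adjusted p = 0.00816). The main Cryab transcript has 4 exons and made up 97.4% ± 0.30 of the Cryab transcripts in SHR and 98.5% ± 0.20 in BN-Lx (SD, n = 4 each). A Cryab form with 3 exons had 10.09, 10.09, 9.94 and 9.99 in SHR and 9.65, 8.75, 5.26 and 9.47 in BN-Lx. The ranges did not overlap, and the difference of 1.74 (SE 0.85) did not pass the test (adjusted p = 0.285), with BN-Lx replicate 3 far below the other rats. Without that rat the difference was 0.73 (adjusted p = 0.123). For Hsph1 the form with 18 exons made up 81.3% ± 4.0 in SHR and 80.3% ± 3.2 in BN-Lx.

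The other genes of the chaperone system were taken from lists chosen with the tissue in mind, leaving out the 9 genes. Their counts stand beside the 6.95% of all assembled genes called lower and the 7.38% called higher. Of 20 J-domain co-chaperones measured 2 were higher and 2 lower in SHR. Dnaja4 was lower by a difference of -0.65 (SE 0.06, adjusted p = 1.33e-05), and it stayed called in all 17 other settings. Dnajb5 (0.43) and Dnajc3 (0.26) were higher. In the HSP90 family 1 of 3 was lower and 1 higher: Hsp90ab1, the constitutive cytosolic HSP90, was lower by a difference of -0.37 (SE 0.07, adjusted p = 0.00355), and Trap1, the mitochondrial HSP90, was higher by 0.42 (SE 0.08, adjusted p = 0.00454). Of 18 nucleotide exchange factors and co-chaperones 2 were higher and 1 lower. Bag3, which links HSP70 to Hspb8 in muscle, was higher by 0.69 (SE 0.13, adjusted p = 0.00363), Cdc37 was higher by 0.38, and Grpel1, the mitochondrial exchange factor, was lower by a difference of -0.30. Of 9 chaperonins 2 were lower, the mitochondrial pair Hspd1 (-0.29) and Hspe1 (-0.27). Among 4 other small heat shock proteins Hspb6 was lower by a difference of -0.43 (SE 0.10, adjusted p = 0.0148). Of 15 endoplasmic reticulum and mitochondrial stress genes 2 were higher, Serpinh1 (0.47), the collagen chaperone, and Pdia3 (0.57). None of 6 heat shock factors and their regulators was called by limma (2 at an unadjusted p under 0.05), nor was any of 5 other cytosolic HSP70 and HSP110 chaperones (0 at an unadjusted p under 0.05). Of 23 immediate early genes 1 was higher (Nr4a3, 1.17) and 2 lower (Maff, -0.55, and Dusp5, -0.63). Nr4a3 stayed called in 3 of 17 other settings and had 0.74 (adjusted p = 0.0689) without BN-Lx replicate 1. Of these 16 called genes 3 stayed called with the technical score as a covariate (Hsp90ab1, Dnaja4 and Hspb6), and 5 with the spike-in level (Dnaja4, Dnajb5, Bag3, Cdc37 and Pdia3), so 1, Dnaja4, was called in both fits. With the score Bag3 had 0.53 (adjusted p = 0.211), Trap1 0.33 (adjusted p = 0.214), Serpinh1 0.21 (adjusted p = 0.351), Cdc37 0.18 (adjusted p = 0.634), Pdia3 0.35 (adjusted p = 0.413) and Nr4a3 0.59 (adjusted p = 0.629). With the spike-in level Hsp90ab1 had -0.36 (adjusted p = 0.0887) and Hspb6 -0.23 (adjusted p = 0.409). Each of the other genes named here was lost under both covariates (Dnajc3, Grpel1, Hspd1, Hspe1, Maff and Dusp5) or, for Dnajb5, under the score.

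Markers of cell types were called in both directions. Background shares over all 46063 assembled genes were 6.95% called lower, 7.38% called higher and 20.6% with ranges that did not overlap. With genes of a mean under 5 removed, 4975 of 19565 were called. SHR had 6 of 10 endothelial markers higher and 1 lower, 5 of 9 pericyte and smooth muscle markers higher, 4 of 7 macrophage markers lower, and 5 of 6 mesothelial markers lower. The summed macrophage markers ran from 12.51 to 12.82 in SHR and from 12.83 to 13.02 in BN-Lx, and the summed mesothelial markers from 10.1 to 10.3 in SHR and from 10.4 to 10.7 in BN-Lx. The sums did not overlap either for lymphocyte markers (7.97 to 8.26 in SHR, 8.55 to 8.64 in BN-Lx), pericyte and smooth muscle markers (14.74 to 14.79 in SHR, 14.49 to 14.61 in BN-Lx) and endothelial markers (15.97 to 16.12 in SHR, 15.90 to 15.96 in BN-Lx). Of 7 cardiomyocyte markers 2 were lower, and their sum lay between 21.2 and 21.4 in both strains. Of the others, 1 of 10 fibroblast markers was higher and 1 lower, 1 of 11 lymphocyte markers was higher and 2 lower, 1 of 5 atrial markers was higher and 1 lower, 2 of 6 Schwann cell markers were higher, and none of 4 erythroid markers (1 at an unadjusted p under 0.05) and not the 1 adipocyte marker measured was called. In bulk tissue fewer cells of a type and less RNA per cell cannot be told apart, and the part of cell types in the chaperone differences was not tested.

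In the RefSeq table the pair of stress-inducible HSP70 genes appeared under other names. The row called Hspa1b followed the transcript NM_031971.2, which RefSeq (GRCr8) now lists under Hspa1a, with a largest difference of 0.11 over 23 libraries. A row called LOC108348108 followed NM_001329896.1, now listed under Hspa1b, with a largest difference of 0.19. Both rows are given for the panel. The genes are near-identical copies, so the division of reads between them is uncertain.

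The panel asks how genes of the same symbols vary among recombinant inbred strains and whether the families differ. For Hspa1b the RefSeq row and the assembled model of the progenitors need not measure the same copy. With limma and batch as a covariate, 3 of the 9 genes were lower in HXB strains (Hspa1b, Hspb1 and Cryab) and 1 was higher (Hsp90aa1). Over all 19100 RefSeq genes 17.8% were called lower and 18.5% higher, so 4 of 9 is near the share of all genes. The median difference over the 9 genes was -0.12, beside -0.01 over all genes. The ranges of the families overlapped for all 9 genes, while 0.204% of all genes did not overlap. With the technical score as a covariate none of the 9 genes, and none of the 19100, was called by limma (at an unadjusted p under 0.05, 1 of the 9, Cryab, and 1570 of all). With the spike-in level as a covariate none was called either (2 of the 9, Dnajb1 and Cryab, and 1930 of all at an unadjusted p under 0.05). Family and the technical measures moved together across these libraries, and their parts in the differences cannot be told apart.

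**Figure D3:**
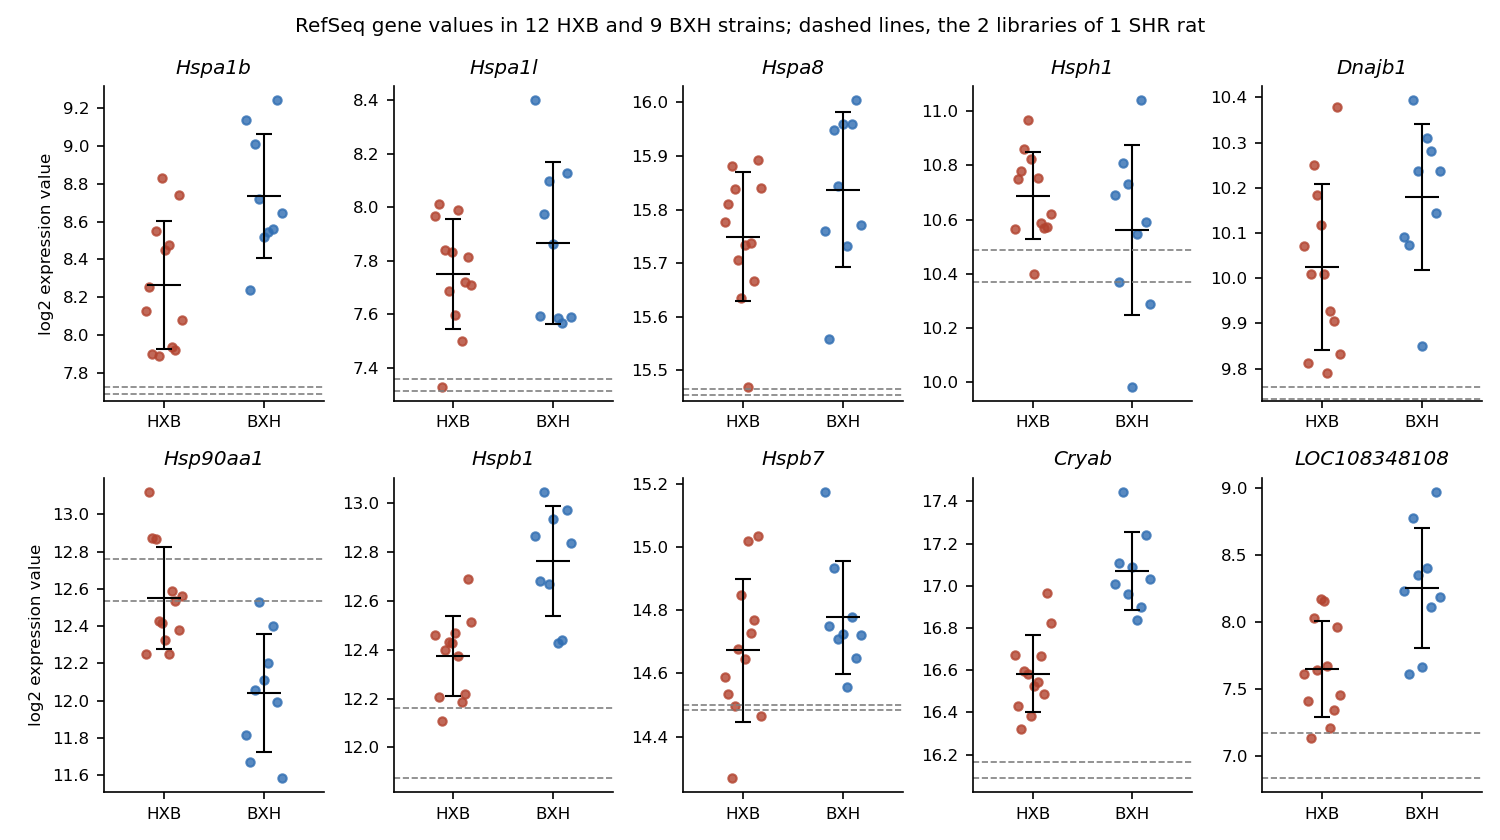
Deposited log2 expression values (vertical axis) of the 9 genes and of LOC108348108 in the RefSeq table, in 12 HXB strains (left, red) and 9 BXH strains (right, blue), 1 library for each strain; bars are the mean and 1 SD, and dashed lines are the 2 libraries of SHR replicate 4. Hspb1 and Cryab sit lower and Hsp90aa1 higher in HXB strains with overlapping ranges. Both SHR libraries lie below all strains for Hspa1b, Hspa8, Dnajb1 and Cryab, with no share over all genes to set beside this.

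Hspa1b had a median of 8.19 in HXB strains (lowest 7.89 in HXB21, highest 8.83 in HXB24) and of 8.65 in BXH strains (8.24 in BXH11, 9.24 in BXH8). Of the BXH strains 3 lay above every HXB strain, and the difference was -0.48 (SE 0.14, adjusted p = 0.0106). LOC108348108 had a median of 7.63 in HXB strains (7.13 to 8.17) and of 8.23 in BXH strains (7.61 to 8.97). HXB was lower by a difference of -0.61 (SE 0.17, adjusted p = 0.00648). BXH8 was the highest and BXH11 the lowest BXH strain in both rows.

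Cryab had a median of 16.56 in HXB strains (16.32 in HXB17, 16.96 in HXB5) and of 17.03 in BXH strains (16.84 in BXH5, 17.45 in BXH12). All HXB strains except HXB5 were below the lowest BXH strain, and the difference was -0.50 (SE 0.08, adjusted p = 0.000338). Hspb1 had a median of 12.41 in HXB strains (12.11 in HXB17, 12.69 in HXB5) and of 12.84 in BXH strains (12.43 in BXH5, 13.05 in BXH12). The difference was -0.41 (SE 0.07, adjusted p = 0.000476). The same strains were lowest and highest in each family for both genes. HXB5 had the lowest technical score of the HXB strains (-0.49), and BXH12 the lowest of the BXH strains (-0.997). The strains lowest for both genes did not have the highest scores. HXB17 had 0.65, below HXB13 (1.15), and BXH5 had 0.23, below BXH6 (0.36), where most BXH strains were below 0. Across the 21 strains, centred within batch, the score correlated with Cryab at a Pearson r of -0.88 and with Hspb1 at -0.91, as a description of these libraries.

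Hsp90aa1 ran the other way, with a median of 12.48 in HXB strains (12.25 in HXB1, 13.12 in HXB13) and of 12.06 in BXH strains (11.59 in BXH9, 12.53 in BXH13). Of the HXB strains 6 lay above every BXH strain, and the difference was 0.52 (SE 0.12, adjusted p = 0.00174). Its correlation with the technical score was 0.83. With the score as a covariate the difference became 0.12 for Hsp90aa1 (SE 0.14, adjusted p = 0.847). It became -0.11 for Hspb1 (SE 0.07, adjusted p = 0.712), -0.23 for Cryab (SE 0.09, adjusted p = 0.566) and -0.24 for Hspa1b (SE 0.21, adjusted p = 0.779).

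**Figure D4:**
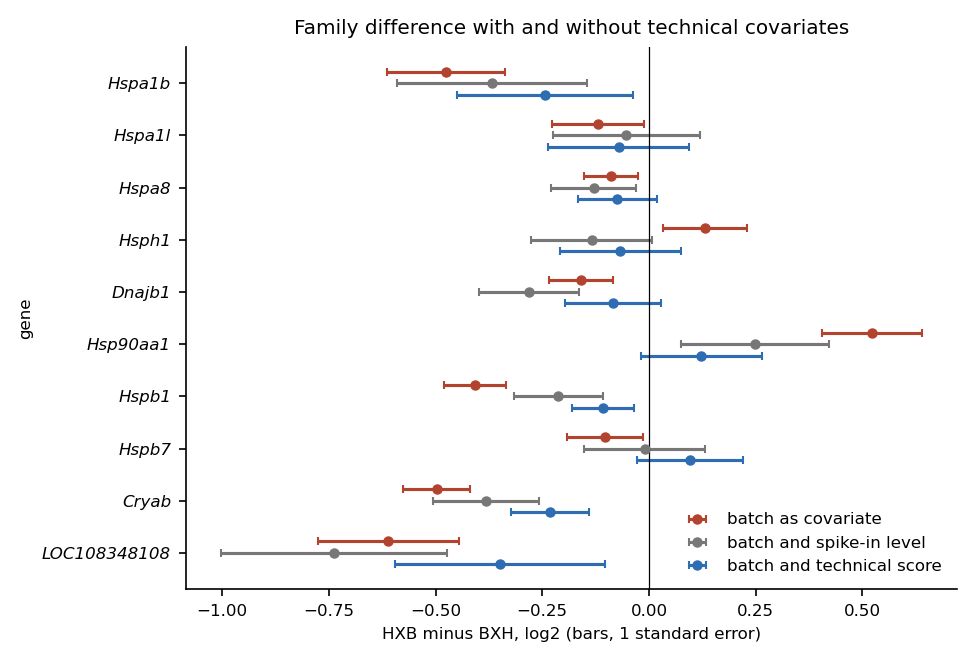
Difference between HXB and BXH strains (horizontal axis, log2, bars 1 standard error) for the 9 genes and LOC108348108, with batch as the covariate (red), with batch and spike-in level (grey) and with batch and technical score (blue). The differences of Hspb1, Cryab and Hsp90aa1 are nearer to 0 with the score (-0.11, -0.23 and 0.12) than without it (-0.41, -0.50 and 0.52).

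The remaining genes did not pass the test between families in the RefSeq table. Hspa8 had a median of 15.76 in HXB strains (15.47 to 15.89) and 15.84 in BXH strains (15.56 to 16.004), with a difference of -0.09 (SE 0.06, adjusted p = 0.276) that changed sign with quantile normalization. Hsph1 had a median of 10.68 in HXB strains (10.40 to 10.97) and 10.59 in BXH strains (9.98 in BXH2 to 11.04 in BXH6). Its difference was 0.13 (SE 0.10, adjusted p = 0.31), with a change of sign in 4 of 31 other settings. Dnajb1 had a median of 10.01 in HXB strains and 10.24 in BXH strains, with a difference of -0.16 (SE 0.08, adjusted p = 0.101). Hspa1l (-0.12, SE 0.11, adjusted p = 0.402) and Hspb7 (-0.10, SE 0.09, adjusted p = 0.38) likewise overlapped between families. Of the 31 other settings Hspa8 and Hspb7 were each called in 1, Dnajb1 in 3, and Hsph1 and Hspa1l in 0. In the assembled table Hspa8, Dnajb1 and Hspb7 were all called, lower in HXB strains.

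Within batches the called differences kept their direction. In the 15 strains of batch 3 they were -0.45 for Hspa1b, -0.46 for Hspb1, -0.55 for Cryab and 0.52 for Hsp90aa1, all called. In the 6 strains of batch 2 they were -0.53 for Hspa1b, -0.29 for Hspb1, -0.38 for Cryab and 0.54 for Hsp90aa1. No gene of the 9 and none of all genes was called by limma in batch 2 (at an unadjusted p under 0.05, 4 of the 9, Hspa1b, Dnajb1, Hsp90aa1 and Cryab, and 1561 of all). Between batch 3 and batch 2 none of the 9 genes and 4 of all genes were called (at an unadjusted p under 0.05, 1 of the 9, Hspb1, and 535 of all).

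The pathway lists between families were read against the same background. Of 4 other small heat shock proteins 3 were lower in HXB strains, Hspb6 (-0.54), Hspb2 (-0.28) and Hspb8 (-0.23). In the HSP90 family Hsp90ab1 (-0.17) and Trap1 (-0.22) were lower and the endoplasmic Hsp90b1 (0.29) was higher. Of 23 J-domain co-chaperones 8 were higher, with Dnajc13 (0.33) and Dnajc7 (0.25) among the smallest p, and 5 lower, with Dnajc30 (-0.38). Of 26 exchange factors and co-chaperones 5 were higher and 11 lower, among them Aarsd1 (-0.36), Fkbp8 (-0.43) and Fkbp4 (-0.30). Of 7 heat shock factors and regulators 3 were higher, with Hsf2 (0.31) and Sirt1 (0.35), and 2 lower, with Hsf4 (-0.27). Of 10 chaperonins 3 were higher, with Cct6a (0.26) and Hspd1 (0.20), and 1 lower, Cct3 (-0.17). Of 20 endoplasmic reticulum and mitochondrial stress genes 3 were higher, with Pdia3 (0.46), and 8 lower, with Xbp1 (-0.26) and Sdf2l1 (-0.39). Of 26 immediate early genes 1 was higher (Klf6, 0.28) and 5 lower, with Jund (-0.38) and Ier2 (-0.32). None of 7 other cytosolic HSP70 and HSP110 chaperones was called by limma (1 at an unadjusted p under 0.05). None of these genes was called with the technical score or the spike-in level as a covariate.

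Marker lists between families gave 5 of 9 macrophage and 5 of 7 mesothelial markers lower in HXB strains, 1 of 9 cardiomyocyte markers higher and 3 lower, 3 of 11 endothelial markers higher and 4 lower, 1 of 10 fibroblast and 2 of 10 pericyte and smooth muscle markers higher, and 2 of 12 lymphocyte markers lower. The summed macrophage markers ran from 12.80 to 13.24 in HXB strains and from 13.05 to 13.45 in BXH strains. No erythroid (2 of 7 at an unadjusted p under 0.05), atrial (1 of 5), Schwann cell (0 of 6) or adipocyte marker (0 of 1) was called by limma. These counts stand beside 17.8% of all RefSeq genes called lower and 18.5% called higher. The part of cell types in the chaperone differences was not tested.

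Across the panel the spread differed between the genes. Within batch, the SD over 21 strains in the RefSeq table was 0.42 for Hspa1b, 0.39 for Hsp90aa1, 0.31 for Cryab, 0.27 for Hspb1, 0.24 for Hsph1 and 0.14 for Hspa8, beside a median of 0.18 over 9396 genes with a mean over 8. Hspa1b and Hsp90aa1 had a larger SD than 96.9% and 96.2% of those genes, and Hspa8 than 30.3%. From the lowest to the highest strain Hspa1b spanned 2.56-fold, Hsp90aa1 2.90-fold and Hspa8 1.45-fold. The 2 later libraries of SHR replicate 4 differed by 0.04 for Hspa1b, 0.23 for Hsp90aa1, 0.29 for Hspb1 and 0.08 for Cryab. In the assembled table the libraries of that rat differed by -1.07 (later minus batch 1) for the Hspa1b model with the highest mean. The SD between strains for that model was 0.74. Both SHR libraries lay below all 21 strains for Hspa1b (7.73 and 7.69), Hspa8 (15.45 and 15.46), Dnajb1 (9.76 and 9.73) and Cryab (16.17 and 16.09). The share of all genes for which this holds is not given here, and 1 rat of 1 strain allows no test. It is therefore not read as a trait of these genes. A mixture fit over the strains gave 1 mode for each of the 9 genes and for LOC108348108, while 15.6% of all genes had more than 1.

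Genes of the list varied together in part. Pearson r was computed over 21 strains after centring within batch for 45 pairs of the 10 rows, with permutation tests within batch (100000 permutations, two-sided) and Benjamini-Hochberg adjustment over the pairs, and 10 pairs passed. The strongest was Hspb1 with Cryab (r = 0.90, Spearman rho = 0.91, both with permutation p = 1e-05, the smallest the permutations can give, and adjusted p = 0.000225). It was 0.86 without the strains farthest from the median of Hspb1, 0.95 in batch 3 and 0.71 in batch 2, and 0.73 within HXB strains and 0.77 within BXH strains. Hspa1b and LOC108348108 followed (r = 0.89, rho = 0.86, both with permutation p = 1e-05, adjusted p = 0.000225), a pair that can share reads. That r was 0.87 without the farthest strains, 0.92 in batch 3 and 0.77 in batch 2. Hspa1b with Hspb1 had r = 0.78 and rho = 0.71 (permutation p = 6e-05 and 0.00065, adjusted p = 0.0009 and 0.00532), and r = 0.76 without the farthest strains, 0.73 in batch 3 and 0.96 in batch 2. Hsp90aa1 ran against Hspb1 (r = -0.74, rho = -0.78, permutation p = 0.00024 and 0.00019, adjusted p = 0.00261 and 0.00285) and against Cryab (r = -0.68, rho = -0.75, permutation p = 0.00067 and 0.00028, adjusted p = 0.00502 and 0.00315). Without the farthest strains these were -0.74 and -0.68, in batch 3 -0.70 and -0.67, and in batch 2 -0.87 and -0.81. Within families they were smaller: -0.53 and -0.33 in HXB strains, and -0.35 and -0.20 in BXH strains. The other 5 pairs had r between 0.62 and 0.73. They were Hspb1, Dnajb1 and Cryab with LOC108348108, and Hspa1l and Cryab with Hspa1b. By Spearman rho Hspa1l with Hspa1b did not pass (0.53, permutation test, adjusted p = 0.0552). Within families Hspa1b with Cryab had r = 0.13 in HXB strains and 0.55 in BXH strains, and Cryab with LOC108348108 had 0.12 in HXB strains and 0.47 in BXH strains. Without the farthest strains Cryab no longer passed with LOC108348108 (0.47, permutation test, adjusted p = 0.148) or with Hspa1b (0.54, adjusted p = 0.0646).

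Removing the technical score changed this pattern. The negative relation of Hsp90aa1 with Hspb1 became 0.07 (permutation test, adjusted p = 0.89) and that with Cryab 0.18 (adjusted p = 0.622), and Hspb1 with Cryab became 0.51 (adjusted p = 0.129). Hspa1b kept its relation with LOC108348108 (0.82, adjusted p = 0.0018), Hspb1 (0.69, adjusted p = 0.0123) and Hspa1l (0.64, adjusted p = 0.0166). Another 3 pairs passed only after the score was removed: Hspa1l with Hspb1 (0.72, adjusted p = 0.0123), Hspa8 with Hsp90aa1 (0.67, adjusted p = 0.0166) and Hsph1 with Dnajb1 (0.61, adjusted p = 0.0344). Before removal these 3 had r = 0.50, 0.13 and 0.29.

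**Figure D5:**
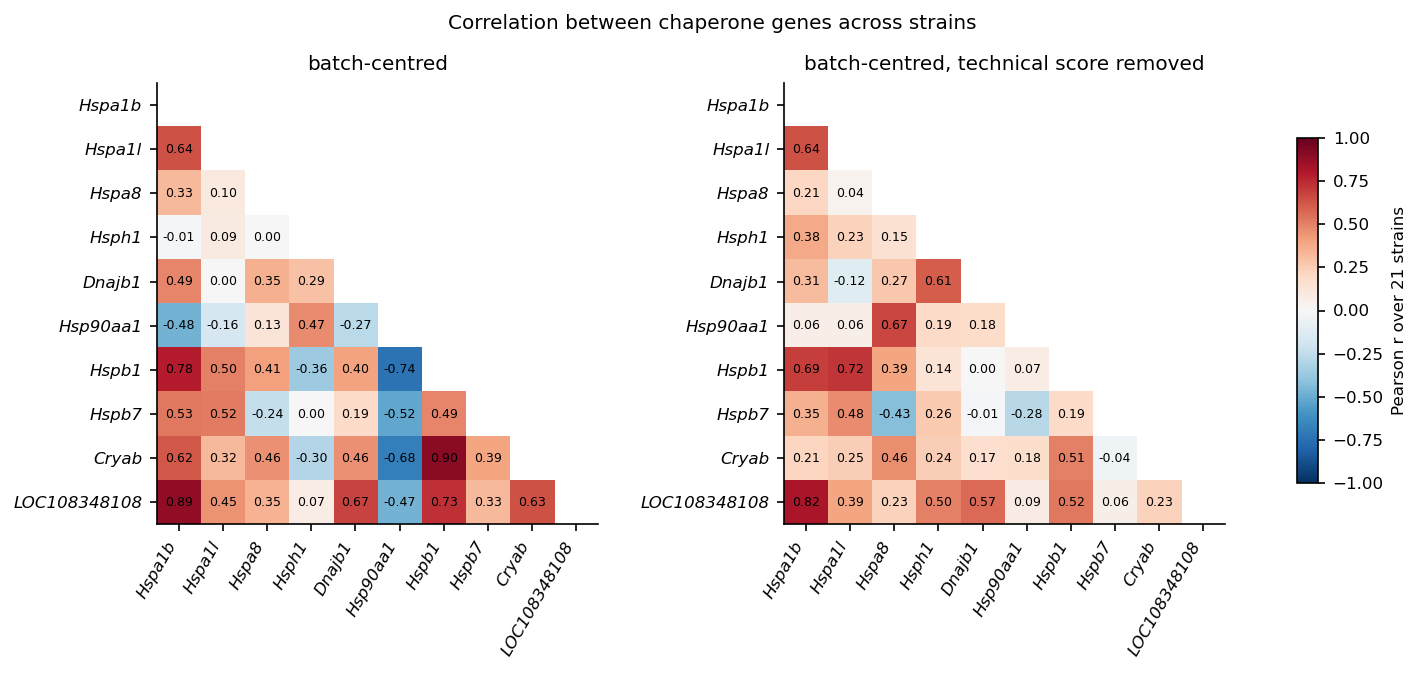
Pearson r (colour and printed value) between the 9 genes and LOC108348108 over 21 strains, centred within batch (left) and with the technical score also removed (right). Hsp90aa1 is negative with Hspb1 and Cryab on the left (-0.74 and -0.68) and near 0 on the right (0.07 and 0.18), while Hspa1b with LOC108348108 stays at 0.82 or above.

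Outside the list, the genes most like the mean z-score of the 5 genes Hspa1b, Hsph1, Dnajb1, Hsp90aa1 and Hspa8 were LOC120097050 (r = 0.78 over 21 strains), RGD1304624 (0.76), LOC120099854 (0.73), Ikbkg (0.73), LOC120102403 (0.72), Lins1 (0.72), LOC120095848 (0.72), Gbp1 (0.69), Thnsl1 (0.69) and Drg1 (0.69). The 5 genes themselves had r with that mean between 0.31 (Hsp90aa1) and 0.68 (Dnajb1). Several of the 10 had low values, beside library medians of 7.89 to 7.97. Means in HXB and BXH strains were 2.59 and 2.69 for LOC120097050 and 3.51 and 3.73 for LOC120102403. They were 3.81 and 3.997 for LOC120095848, and 4.26 and 4.22 for LOC120099854. The 10 were picked as the highest of all RefSeq genes, so their r is a description with no test.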

How the data were processed

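Left ventricle total RNA depleted of ribosomal RNA was analysed from the log2 values deposited by the authors for assembled genes and transcripts (30 libraries), RefSeq genes and transcripts (23 libraries) and Ensembl genes. According to the submitters' processing notes, build rn7 was used with RSEM 1.3.1, StringTie 1.3.5, HISAT2 2.1.0, Bowtie2 2.3.4.3, cutadapt 1.9.1 and DESeq2 (no version). Roles and transformation were not given in the sources used here, no counts were used, and depth is unknown. Exon coordinates (other values) are from the annotation deposited by the authors. Spike-in RNAs were kept out of tests.

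Groups were compared two-sided with limma 3.58.1 under R 4.3.3 (linear model, moderated with trend), adjusting by Benjamini-Hochberg over each whole table, at a threshold of 0.05. The progenitor fit held the batch 1 libraries without covariates, and the family fit had batch as a term. Modes were fitted with mclust 6.1.1 (at most 3). Correlations used numpy 2.4.6 and scipy 1.17.1 with pandas 2.3.3 in Python 3.11.15, and figures matplotlib 3.10.9. Fits were tested on simulated data.

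Named genes were all members, at most 3 called genes with the smallest p of each pathway list, and the 10 most alike RefSeq genes. The members and lists were chosen with earlier results of these data known. SHR replicate 4 was sequenced in 3 batches. Its later libraries entered only the technical score, the spread and 1 alternative. The labels do not say that rats came from separate litters, so p-values measure the spread between these samples. Alternatives changed the trend, normalization, filter, covariates, tables and libraries. The technical covariates and the sum of the Hspa1b models were added after seeing the data.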

Additional observations from a re-analysis of the deposited data

Results flagged for a closer look

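In 28 groups of 4 or 9 samples tested for a sample far from the others, 3 such samples were found, all SHR rats in the assembled table. Chance gives about 5% of groups. Hspa1b was 6.36 in SHR replicate 3, beside 7.04 in the nearest rat. Hspa8 was 15.60 in SHR replicate 1, beside 15.38 in the nearest. Hspb7 was 14.38 in SHR replicate 2, beside 14.71 in the nearest.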

How the results depend on the processing

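Depth is unknown, so no limit from counting can be given, and the number of rats and of libraries for each strain sets the precision. For SHR against BN-Lx 5 of 9 genes were called, and 3 with all groups and batch, 3 without the trend and 3 with the technical score as a covariate. Leaving out each rat gave 4 to 5. Over all assembled genes 6603 were called, against 3916 with all groups and batch, 1443 with the technical score, 2055 with the spike-in level and 4377 without SHR replicate 4. For transcripts 3 of 17 were called, 1 without the trend, and 2 to 4 when each rat was left out. Over all transcripts 5083 were called, and 3018 to 3722 when each rat was left out.

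With the replicate block 5 of 9 genes and 5437 of all genes were called, and 2 of 17 transcripts and 1893 of all transcripts. Hspb7 was lost and Hspa1l gained under the block. Rats of the same number share only a number: their deviations correlated at 0.19, -0.38, -0.17 and 0.15 over 10045 genes, and 1 of 4 SHR rats matched its own number best.

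For HXB against BXH 4 of 9 genes were called, and 0 in batch 2 alone. The count was 0 with the technical score, 0 with the spike-in level and 7 in the assembled table, where Hspa8, Dnajb1 and Hspb7 were called too. Over all genes 12871 of 46063 were called in the assembled table, against 6940 of 19100 in the RefSeq table. Leaving out each strain from the RefSeq table gave 4 to 5 of the 9 genes. Of 45 pairs 10 correlated, 6 after removing the technical score, and 19 of 36 in the assembled table.

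Signs changed for Hsph1 between progenitors (-0.105 with the score, and -0.0213 to 0.24 when each rat was left out) and for Hsp90aa1 (-0.0788 with the score). Between families they changed for Hsph1 (-0.18 in batch 2, -0.0669 with the score, -0.13 with the spike-in level, -0.0393 in the assembled table), Hspb7 (0.10 with the score), Hspa8 (0.10) and Hsp90ab1 (0.0234) with quantile normalization, Cct3 (0.00587 in batch 2), and Sirt1 (-0.0084), Jund (0.0725) and Ier2 (0.01996) with the score. Correlations of Hsp90aa1 with Hspb1 (0.0723) and Cryab (0.18) changed sign with the score removed. Leaving out rats changed the sign of the Hsph1 transcript with 17 exons (-0.16 to 0.30), the long Cryab transcript with 5 exons (-0.13 to 0.52) and a Dnajb1 transcript with 3 exons (-0.995 to 0.86). The cause was not tested. The older assembled gene table was not run, since it could not be matched to these genes or to BN-Lx.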
